A study of Homo sapiens with 9 samples.

Results

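The integrated stress response messages studied here were 10 messages of the pathway that lowers protein synthesis under stress, ATF4, ATF5, DDIT3, DDIT4, ASNS, TRIB3, SESN2, PPP1R15A, PPP1R15B and CHAC1. They were chosen by gene name, and all 10 had a row in both deposited comparisons, among 51111 genes in the one for the nuclear poly(A) binding protein (PABPN) and 51268 in the one for the cytoplasmic poly(A) binding protein (PABPC). RNA associated with each protein was isolated by RNA immunoprecipitation (RIP) from wildtype HEK293T, a human cell line of embryonic kidney origin. The cells had been crosslinked with 0.1% formaldehyde for 10 min, in the inputs as well as in the RIPs, and no stress treatment is named in the labels. There were 3 inputs without immunoprecipitation, 3 PABPN RIPs and 3 PABPC RIPs, and the lysate of each of the 3 biological replicates was divided between the antibodies. The question was how much of each message each protein carried relative to total RNA.

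In the integrated stress response, kinases that sense amino acid shortage, unfolded proteins, viral RNA or heme shortage phosphorylate the initiation factor eIF2, which lowers translation of most messages. A few messages with short upstream reading frames, among them ATF4, ATF5, DDIT3 and PPP1R15A, are then translated better. ATF4 in turn activates genes for amino acid synthesis and transport and for stress regulators, and the phosphatase subunits encoded by PPP1R15A and PPP1R15B reverse the phosphorylation of eIF2. Poly(A) binding proteins coat the tails of messages, the nuclear one on new transcripts and the cytoplasmic one on messages that are exported and translated.

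The deposited tables give means and fold changes and not the libraries one by one, but the values of single libraries could be worked out. The means carry 15 significant digits, and the reads of a gene in each of the 9 libraries had to be whole numbers that give both means and both fold changes. Such reads were found for 18583 of 18661 genes (99.6%) with baseMean, the mean of reads divided by size factors, above 10 in both tables. For 1111 genes several sets of reads fitted within the tolerance, and the best was kept only where its misfit to the fold changes was at least 50 times smaller than that of the next. ATF4 was the only member of this kind, and all 10 members were recovered. Introns and exons were counted together, so all values describe spliced and unspliced RNA. The libraries of each group are called a, b and c in ascending order of their size factors, because the tables do not tell which replicate number each one has. Normalised reads below are reads divided by a size factor of their library, computed over all 9 libraries together. These are not the size factors of the deposited DESeq2 fits, so ratios of normalised reads can differ from the deposited fold changes. Estimated depth lay between 36.5 and 52.2 M reads per library. HEK293T markers such as VIM, KRT8, KRT18, PAX2, NEFM, LIN28B and CDH2 were present in input at 294 to 66434 normalised reads, whereas the blood and hepatocyte markers PTPRC, CD3E, ALB and APOA1 lay between 0 and 5.04.

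One library of each group stood apart from the other 2. Over 14468 genes outside the stress pathway, the log2 deviations of input library c, PABPN RIP library a and PABPC RIP library c from their own group means correlated at 0.55 to 0.75, while those of each of them and a library of another group that did not stand apart correlated at -0.64 to -0.41. These correlations are over genes, which are not independent replicates, and deviations within a group of 3 sum to 0. The 3 libraries were picked as the combination, with a library of each group, for which the sum of their correlations was highest. The values are therefore no test that they stood apart. Whether the 3 libraries apart come from the same lysate cannot be read from the tables and was not tested. In bulk RNA, fewer cells of a type and less RNA per cell cannot be told apart.

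Because several members were high in the same libraries, the promoters of all 10 were searched for the composite C/EBP-ATF element that ATF4 binds with a C/EBP partner, TGATGNAA on the gene's strand or TTNCATCA for a match on the other strand. RefSeq (GRCh38.p14) windows of 250 bases before to 50 after a start site were found for all 10 members, in 17 windows, and the element was present in 3.62% of all 35116 windows. Matches lay in windows of ASNS, CHAC1 and PPP1R15B, and these are shown as 30 bases, 5′ to 3′ on the gene's strand, with the match in capitals.
ASNS (chr7:97872458-97872487, minus strand, within an annotated exon of GENCODE 44, the match ending 60 bases before the RefSeq start site): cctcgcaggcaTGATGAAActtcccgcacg
CHAC1 (chr15:40953251-40953280, plus strand, within an annotated exon, matched on the opposite strand 201 bases before the start site): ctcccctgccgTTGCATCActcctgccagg
PPP1R15B (chr1:204412026-204412055, minus strand, upstream of the annotated gene and 219 bases before the start site): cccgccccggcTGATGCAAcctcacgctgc
ASNS and CHAC1 were among the members that varied most between libraries and PPP1R15B among those that varied least. DDIT4, DDIT3 and SESN2 also varied strongly and had no match. Whether the element bears on this variation was not tested, and 3.62% is a share of windows and not of genes. A match of letters is not evidence of binding, and for the other members it says only that these letters are not in the windows searched.

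The messages of the transcription factors ATF4 and ATF5 were enriched with PABPC and not called with PABPN. ATF4 (chr22:39519695-39522683, plus strand), the main transcription factor of the response, had 5684, 5729 and 8151 normalised reads in input libraries a, b and c, 6536, 5721 and 6599 in PABPN RIP, and 28957, 26968 and 40999 in PABPC RIP. ATF5 (chr19:49928702-49933935, plus strand), a related factor, was far less abundant, with 103, 130.5 and 95.3 normalised reads in input, 124, 108 and 163 in PABPN RIP and 479, 568 and 375 in PABPC RIP. For both genes every PABPC RIP library lay above every input and PABPN RIP library, and the input and PABPN RIP libraries overlapped. The log2 fold change of PABPC RIP over input was 2.26 for ATF4 (SE 0.184, Padj = 1.27e-33 from the authors' DESeq2 fit) and 2.06 for ATF5 (SE 0.209, Padj = 4.95e-22). In PABPN RIP it was 0.10 for ATF4 (SE 0.149, Padj = 0.655) and 0.42 for ATF5 (SE 0.226, Padj = 0.131).

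DDIT3 (chr12:57516588-57521737, minus strand), which encodes the proapoptotic factor CHOP, behaved less uniformly. It had 224, 234 and 448 normalised reads in input libraries a, b and c, 439.6, 244 and 324 in PABPN RIP and 384, 377 and 984 in PABPC RIP. The highest library of each group was the one that stood apart, and the groups overlapped. The fold change over input was 0.90 on the log2 scale in PABPC RIP (SE 0.556, Padj = 0.148) and 0.30 in PABPN RIP (SE 0.268, Padj = 0.396), and neither passed.

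Both regulatory subunits of the eIF2 phosphatase were enriched with PABPC, and PPP1R15A varied little between the libraries of a group. PPP1R15A (chr19:48872212-48876059, plus strand), the inducible subunit GADD34, had 592.5, 642.5 and 681 normalised reads in input, 605, 643 and 759 in PABPN RIP and 2012, 2001 and 2058 in PABPC RIP. PPP1R15B (chr1:204396492-204411887, minus strand), the constitutive subunit CReP, had 2983, 3116 and 2585 in input, 2537, 3229 and 3477 in PABPN RIP and 6839, 6625 and 5011 in PABPC RIP. Neither overlapped between PABPC RIP and the other groups, and the libraries that stood apart were the lowest of their groups for PPP1R15B. The log2 fold changes in PABPC RIP were 1.61 for PPP1R15A (SE 0.107, Padj = 5.01e-50) and 1.03 for PPP1R15B (SE 0.150, Padj = 1.92e-11), against 0.22 (Padj = 0.195) and 0.24 (Padj = 0.191) in PABPN RIP.

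TRIB3 (chr20:362835-397559, plus strand), a pseudokinase that is a target of ATF4 and DDIT3 and restrains them, was the only member called in opposite directions. It had 374, 376 and 544 normalised reads in input, 294, 245 and 247 in PABPN RIP and 1460, 1482 and 2137 in PABPC RIP. The 3 groups did not overlap. It was enriched with PABPC (log2 fold change 1.92, SE 0.193, Padj = 1.42e-22) and depleted from PABPN (-0.57, SE 0.177, Padj = 0.00425). The PABPN call was lost in limma on the reads of all 9 libraries, where the log2 fold change was -0.65 with an adjusted p of 0.0173.

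The remaining targets of ATF4 differed strongly between the libraries of 1 group. CHAC1 (chr15:40952962-40956512, plus strand), an enzyme that degrades glutathione, had 37.0, 65.8 and 659 normalised reads in input, 373, 27.6 and 48.3 in PABPN RIP and 220.0, 117 and 2036 in PABPC RIP. DDIT4 (chr10:72273919-72276036, plus strand), an inhibitor of mTORC1 also called REDD1, had 853, 746 and 2702 in input, 1758, 406 and 524 in PABPN RIP and 2417, 2701 and 8929 in PABPC RIP. In each group of both genes 1 library was more than 3-fold above the others, and it was always the library that stood apart. ASNS (chr7:97851677-97872542, minus strand), asparagine synthetase, had 2400, 2392 and 7388 in input, 6162, 2201 and 2294 in PABPN RIP and 4040, 4077 and 10488 in PABPC RIP. SESN2 (chr1:28259518-28282491, plus strand), a leucine sensor that inhibits mTORC1, had 1737, 1858 and 3790 in input, 3412, 1697 and 1816 in PABPN RIP and 3973, 3764 and 7166 in PABPC RIP. The other 2 libraries of a group were close to each other for ASNS and SESN2, and all 4 genes overlapped between input and PABPC RIP.

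**Figure D1:**
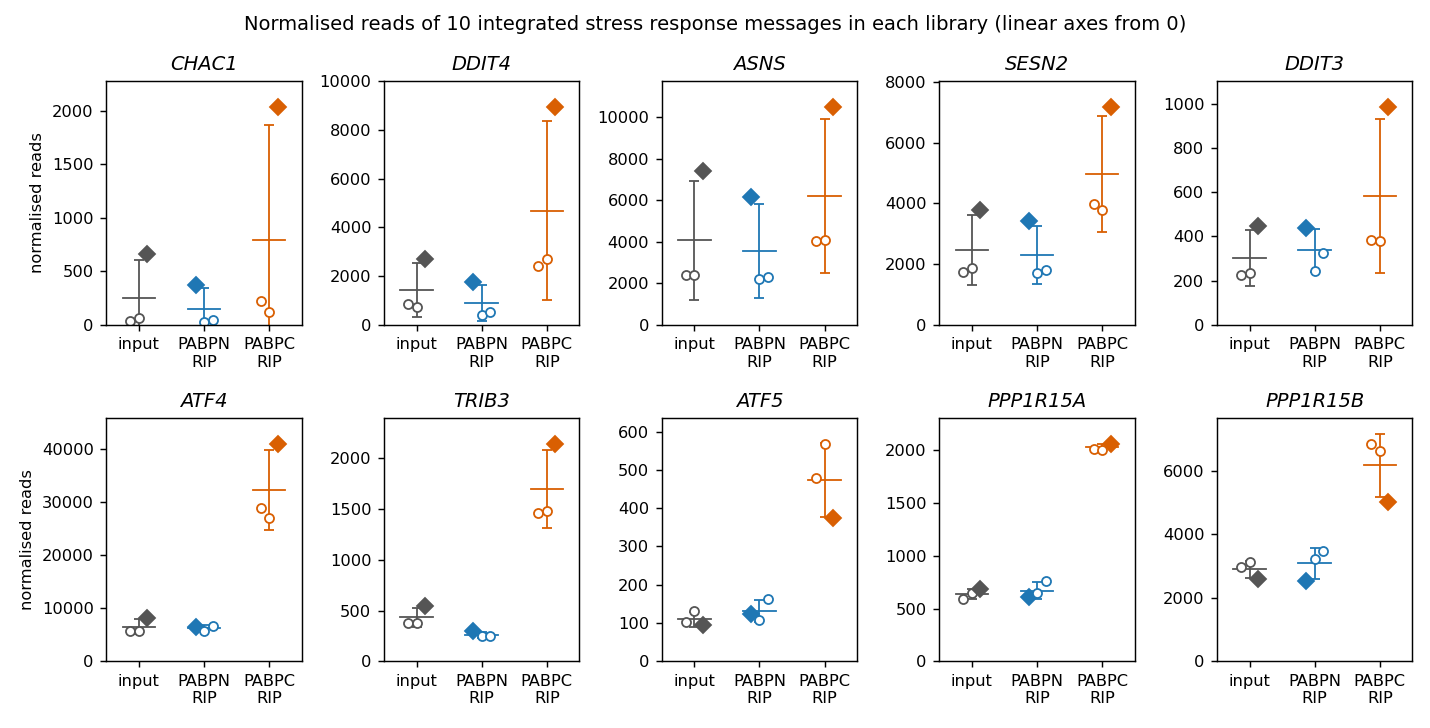
Normalised reads (reads divided by a size factor, linear axes from 0) of the 10 messages in each library of input, PABPN RIP and PABPC RIP. Filled diamonds are the libraries that stood apart, open circles the other 2, and lines with bars the mean and SD of 3 libraries (bars cut at 0). For CHAC1, DDIT4, ASNS, SESN2, DDIT3 and TRIB3 the diamond is the highest point of each group, and for PPP1R15B it is the lowest.

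In the deposited comparisons 5 of the 10 members were enriched with PABPC (ATF4, ATF5, TRIB3, PPP1R15A and PPP1R15B), where enriched means higher and depleted lower in RIP than in input and a gene was called with a log2 fold change beyond 0.5, Padj of at most 0.01 and baseMean above 50. Over all 14843 genes tested 38.4% were enriched and 32.4% depleted with PABPC, so the share of members called was not far above the background. Relative to the median of all genes, 0.14 on the log2 scale, the same 5 were called. No member was depleted with PABPC, also none at an unadjusted p under 0.05 in the authors' DESeq2 fit or in limma. With PABPN 1 member was depleted and none enriched, against 14.6% depleted and 17.5% enriched of 15526 genes, close to the background. No member had an unadjusted p under 0.05 for enrichment by either tool with all libraries. The median log2 fold change of the members was 1.61 in PABPC RIP and 0.08 in PABPN RIP, beside 0.25 and -0.09 over protein coding genes with baseMean above 50. The same 5 members had PABPC RIP libraries entirely above input, as did 46.3% of 14519 genes, and 1, TRIB3, had PABPN RIP libraries entirely below input, as did 45.9%.

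**Figure D2:**
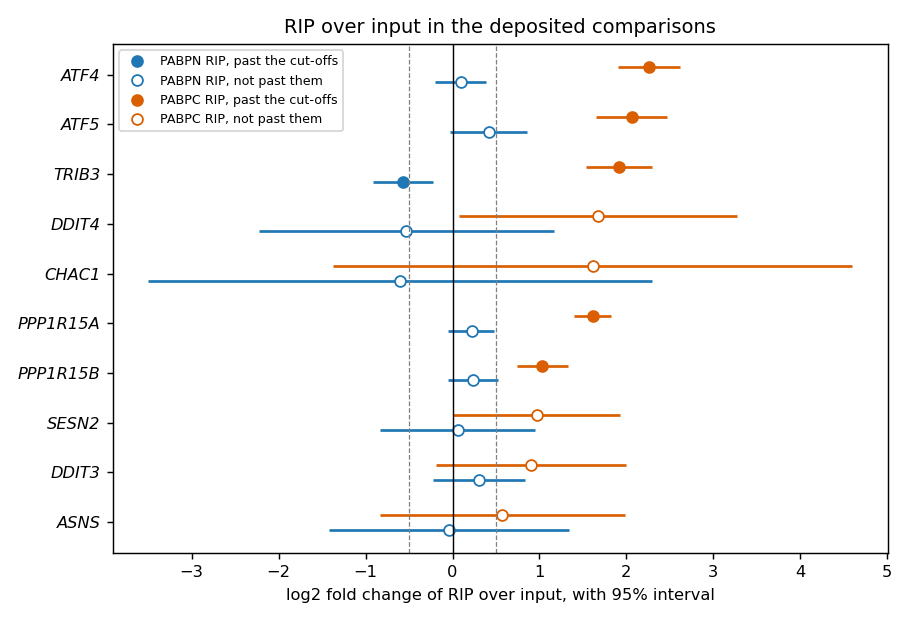
Log2 fold change over input of the 10 messages in PABPN RIP (blue) and PABPC RIP (orange), from the deposited tables, with 95% normal intervals; filled points passed the cut-offs and dashed lines mark 0.5 and -0.5. The 5 messages enriched with PABPC lie between 1.03 and 2.26, and the open PABPC points of DDIT4, CHAC1, SESN2, DDIT3 and ASNS lie between 0.57 and 1.67 with wide intervals.

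The 5 members that were not called with PABPC had larger errors, and their fold changes overlapped the range of those that were called. The log2 fold change was 1.67 for DDIT4 (SE 0.818, Padj = 0.0641), 1.62 for CHAC1 (SE 1.52, Padj = 0.357), 0.97 for SESN2 (SE 0.490, Padj = 0.0737) and 0.57 for ASNS (SE 0.721, Padj = 0.50). Among 11222 protein coding genes with baseMean above 200, the standard error of CHAC1 ranked 1st from the top, DDIT4 5th, ASNS 10th, DDIT3 14th and SESN2 21st. In the PABPN table CHAC1 ranked 1st, DDIT4 4th, ASNS 9th, SESN2 33rd and DDIT3 74th of 11364, so these 5 lay above the 99th percentile in both tables. The spread between replicates that the standard error implies was a coefficient of variation of 129% for CHAC1, 69.4% for DDIT4, 61.2% for ASNS, 46.9% for DDIT3 and 41.6% for SESN2 in the PABPC table, beside a median of 10.7%. PPP1R15A, at 8.47%, was below that median. For CHAC1 the PABPN table holds a fold change of -0.61 and no p, which was so for only 2 genes in that table.

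**Figure D3:**
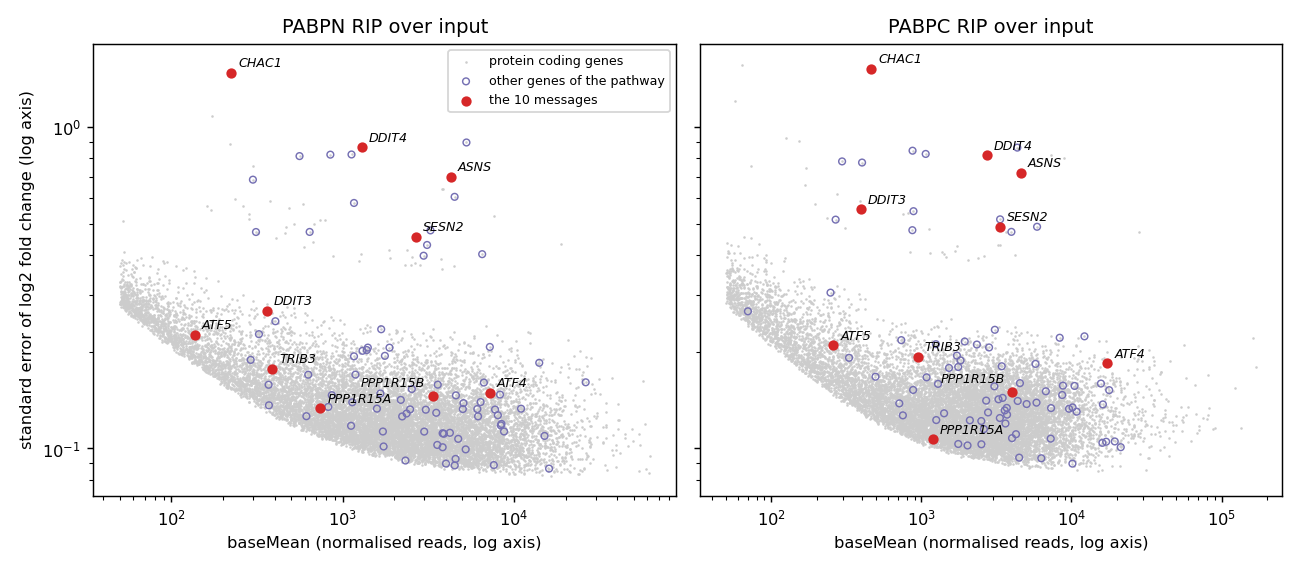
Standard error of the log2 fold change against baseMean (both axes log) for protein coding genes with baseMean above 50 (grey). Among them, open circles are other genes of the pathway or related to it, and red points are the 10 messages. CHAC1, DDIT4, ASNS, SESN2 and, with PABPC, DDIT3 lie in a sparse band well above the main cloud, and the other messages lie within it.

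The ratio of the library apart to the rest was above 1.5 in all 3 groups for 5 members. Relative to the mean of the other 2 libraries, CHAC1 was 12.7-fold higher in input, 9.71-fold in PABPN RIP and 12-fold in PABPC RIP. DDIT4 was 3.38-, 3.78- and 3.49-fold higher, ASNS 3.08-, 2.74- and 2.58-fold, SESN2 2.11-, 1.94- and 1.85-fold and DDIT3 1.95-, 1.55- and 2.59-fold. The ratio was lower for TRIB3, at 1.45, 1.19 and 1.45, and for ATF4, at 1.43, 1.06 and 1.47. PPP1R15A stayed near equality at 1.10, 0.864 and 1.03, whereas ATF5 and PPP1R15B were below 1 in all 3 groups, between 0.717 and 0.918. Thus 5 of 10 members were over 1.5-fold higher in the library apart of every group, beside 0.602% of 11298 protein coding genes with a mean above 200, and 6 had their highest library there in every group, beside 12.2%.

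With PABPC, the fold change over input was positive for all 10 members in the libraries apart and in the rest. Between the libraries apart the log2 ratio of PABPC RIP over input was 1.63 for CHAC1, 1.72 for DDIT4, 0.51 for ASNS, 0.92 for SESN2 and 1.13 for DDIT3. Between the means of the other libraries it was 1.70, 1.68, 0.76, 1.11 and 0.73 in the same order, the gap being widest for DDIT3. With PABPN, the ratio of TRIB3 was -0.89 between the libraries apart and -0.61 between the others, and that of DDIT4 -0.62 and -0.78. ATF4 lay on either side of 0, at -0.32 and 0.11, as did PPP1R15A at -0.17 and 0.18. The ratios are relative within each library, and the libraries apart give 1 value each, with no replicate. They use size factors of all 9 libraries together. The deposited PABPN log2 fold changes, with other size factors, were -0.57 for TRIB3 and -0.53 for DDIT4.

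**Figure D4:**
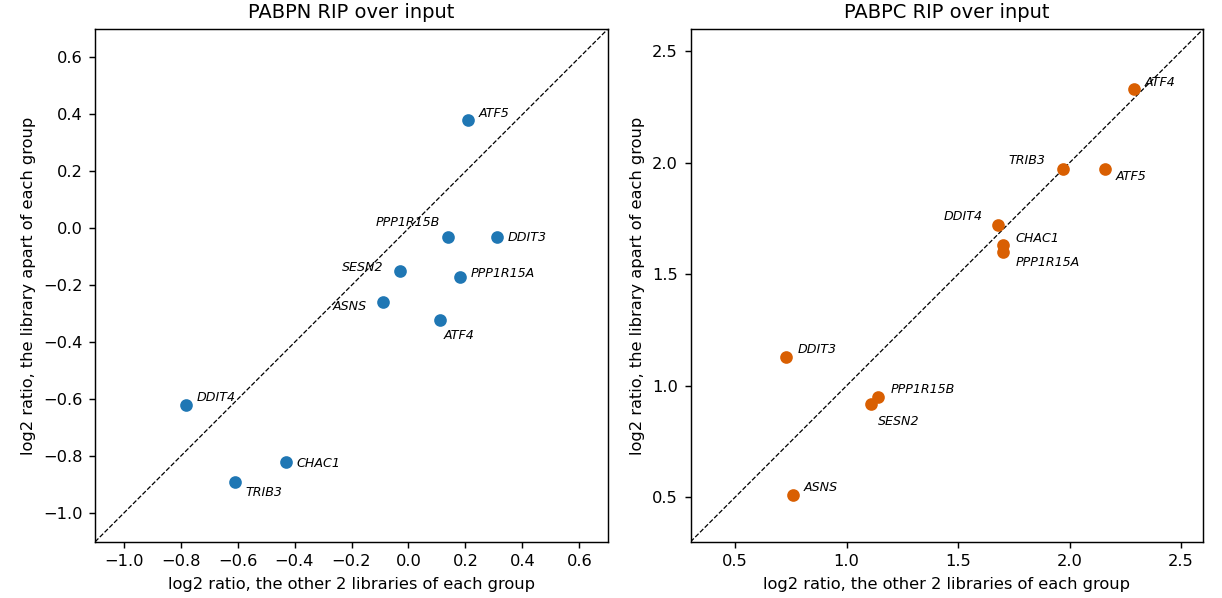
Log2 ratio of RIP over input for the 10 messages, taken between the libraries that stood apart (vertical axis) and between the means of the other 2 libraries of each group (horizontal axis), for PABPN RIP (left) and PABPC RIP (right); the dashed line marks equal ratios. With PABPC the points run along the line from ASNS to ATF4, and all lie above 0 on both axes. With PABPN they lie between -0.89 and 0.38.

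Each comparison was therefore repeated without the 3 libraries apart and with a term for them. In limma on the recovered reads of all 9 libraries 5 members were enriched with PABPC, the same as in the deposited table. Without the 3 libraries all 10 were enriched, beside 37.0% of 14519 genes, and with a term for them again all 10, beside 37.2%. The log2 fold changes in the fit with the term were 1.60 for DDIT4 (SE 0.0914, limma adjusted p = 2.30e-09), 1.58 for CHAC1 (SE 0.272, adjusted p = 1.17e-04), 0.95 for SESN2 (SE 0.0599, adjusted p = 6.25e-09), 0.77 for DDIT3 (SE 0.143, adjusted p = 2.18e-04) and 0.58 for ASNS (SE 0.0573, adjusted p = 5.87e-07). Each group holds 1 library apart, so by design the term leaves the estimates at those of the 9 libraries. The errors fell, which follows for members that were high in the libraries apart. Neither is separate support for the calls. With PABPN 2 members were depleted in both fits, TRIB3 and DDIT4, beside 22.5% of genes without the libraries and 21.3% with the term, and none was enriched, with 4 and 1 members above input at an unadjusted p under 0.05. The log2 fold change of DDIT4 in PABPN RIP was -0.68 (SE 0.0914, limma adjusted p = 2.54e-05) with the term. Which libraries stood apart was learned from these data, so these p-values do not include that choice.

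Set against each other, the 2 proteins differed for 5 members, all with more of the message in PABPC RIP, and the estimates for the other 5 had the same sign. The difference of the deposited log2 fold changes, PABPN minus PABPC, was -2.49 for TRIB3 (SE 0.262, adjusted p = 8.91e-21), -2.16 for ATF4 (SE 0.237, adjusted p = 3.55e-19), -1.64 for ATF5 (SE 0.308, adjusted p = 2.10e-07), -1.39 for PPP1R15A (SE 0.171, adjusted p = 1.36e-15) and -0.79 for PPP1R15B (SE 0.209, adjusted p = 2.36e-04), from a normal test of the DESeq2 estimates adjusted over 14581 genes. These 5 passed, beside 33.4% of genes higher with PABPC and 36.1% higher with PABPN. The other 5 had -2.22 for CHAC1 (95% interval -6.38 to 1.94), -2.20 for DDIT4 (-4.53 to 0.14), -0.91 for SESN2 (-2.22 to 0.40), -0.61 for ASNS (-2.58 to 1.36) and -0.60 for DDIT3 (-1.81 to 0.61). Both comparisons share the input libraries. In limma on the reads 9 members passed without the 3 libraries apart, DDIT3 being the exception (adjusted p = 0.0436), and 10 with the term for them, in both cases beside 37.0% of genes. PABPC RIP libraries lay entirely above PABPN RIP libraries for 7 members, beside 45.5% of genes.

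**Figure D5:**
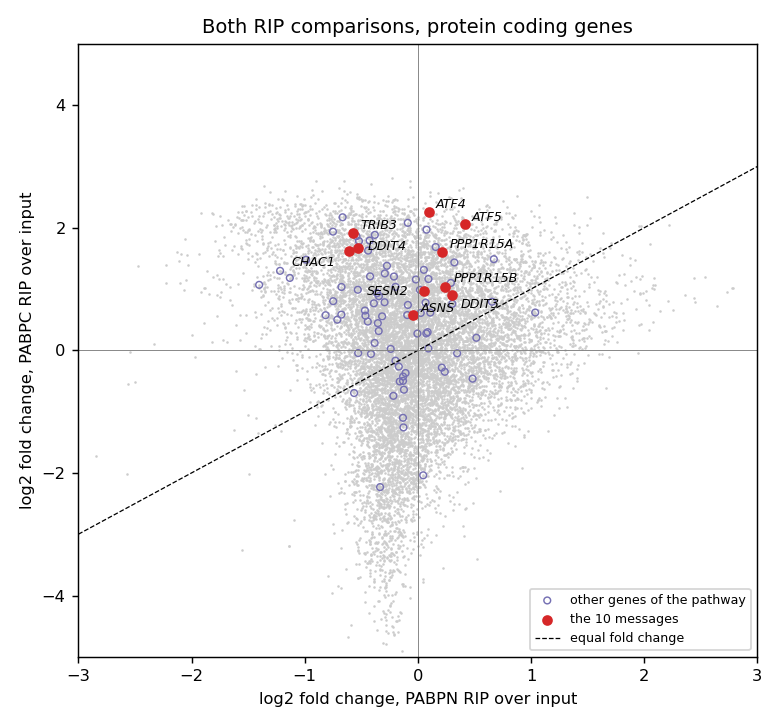
Log2 fold change of PABPC RIP over input (vertical axis) against that of PABPN RIP over input (horizontal axis) for protein coding genes with baseMean above 50 in both tables (grey). Among them, open circles are other genes of the pathway or related to it, and red points are the 10 messages. The dashed line marks equal values and both axes are cut. All 10 messages lie above 0 for PABPC and above the dashed line, between -0.61 and 0.42 for PABPN.

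The order of the fold changes among members was only partly resolved. In PABPC RIP it ran ATF4, ATF5, TRIB3, DDIT4, CHAC1, PPP1R15A, PPP1R15B, SESN2, DDIT3 and ASNS, and of the 9 pairs of neighbours only PPP1R15A and PPP1R15B differed beyond their error (0.58, 95% interval 0.22 to 0.94). In PABPN RIP, which ran from ATF5 to CHAC1, none of the 9 pairs did. The genes nearest to ATF4 in the plane of both fold changes, over 12452 protein coding genes, were EPOP, FRAT2 and RANGRF, at distances of 0.0124 to 0.0668 on the log2 scale. Those nearest to TRIB3, the member with the lowest difference, were NDUFC1, HIGD1A and BORCS6, and those nearest to DDIT3, with the highest, were SAR1B, FAM72A and ITPKC, all within 0.0305.

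Per kilobase of exon ATF4 had the highest level of the members in input and in both RIPs. Reads in introns were counted but only exonic length was divided out, so a member with more intronic reads appears higher on this scale, and the order carries that limit. Its level in input was 2594 ± 561 normalised reads per kb (SD, n = 3), followed by ASNS at 829 ± 589, SESN2 at 711 ± 333, DDIT4 at 698 ± 535 and PPP1R15B at 550 ± 52.5. DDIT3 at 231 ± 96.9, PPP1R15A at 208 ± 14.5, TRIB3 at 142 ± 32.2, CHAC1 at 124 ± 171 and ATF5 at 37.9 ± 6.41 were lower. Of the neighbours in this order, the libraries of ATF4 and ASNS, of PPP1R15B and DDIT3 and of PPP1R15A and TRIB3 did not overlap, and all other neighbours did. In PABPC RIP the level of ATF4 was 12851 ± 3020 normalised reads per kb, and in PABPN RIP 2500 ± 195.

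The members are short messages. Their median exonic length was 2961 bases, beside 5367 over protein coding genes of the PABPN table. Over the 10 members Spearman's rho of length and the PABPC fold change was -0.32, and over 12583 protein coding genes it was -0.48. With PABPN rho was 0.10 and, over 12800 genes, 0.07. ATF5, DDIT3, ASNS and PPP1R15B overlap other annotated genes, DDIT3 over 2769 bases and ASNS over 20855 bases on their own strand, and the study's methods state that stretches shared by genes were removed before counting. The deposited lengths of ATF5, DDIT3 and ASNS were 100% of their annotated exons, so no removal shows in them. Reads of ATF5, DDIT3 and ASNS and of the genes they overlap may not be fully separated. The deposited length of PPP1R15B was 56.3% of its annotated exons, and whether this comes from removal or from the newer annotation was not tested. Pseudogenes of members had few reads beside their parents. ATF4P4 had a baseMean of 15.6 and ASNSP1 of 71.1 in the PABPC comparison, and 5.15 and 135 in the PABPN comparison.

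Beyond the members, 83 other genes of the pathway or related to it, in 6 lists, were all found in both tables, 76 of them with baseMean above 50 in both. Of the 83, 41 were enriched and 8 depleted with PABPC, whereas 4 were enriched and 12 depleted with PABPN. Over all genes these shares were 38.4% and 32.4% with PABPC and 17.5% and 14.6% with PABPN, against which the counts of each list are to be read. In the test of the difference 42 were higher with PABPC and 5 with PABPN, beside 33.4% and 36.1% of all genes. After the log2 fold changes of each RIP were centred on their median over all genes, -0.04 for PABPN and 0.14 for PABPC, the counts were 37 and 10.

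Among 17 genes for eIF2 kinases with their regulators, eIF2 and its exchange factor eIF2B, 9 were enriched and 3 depleted with PABPC, beside 38.4% and 32.4% of all genes. With PABPN 1 was enriched and 1 depleted, beside 17.5% and 14.6%. The difference of PABPN minus PABPC ran from -1.71 for EIF2S1, the phosphorylated alpha subunit of eIF2 (SE 0.242), to 1.90 for OMA1, a mitochondrial protease that relays mitochondrial stress (SE 0.145). Of 12 transcription factors and related regulators of the response 7 were enriched and 3 depleted with PABPC, and 2 were depleted with PABPN, beside 14.6% of all genes. Here the called differences ran from -2.69 for CEBPA, a C/EBP factor (SE 0.227), to 1.13 for FOXO3, a forkhead factor (SE 0.125).

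Of 15 enzymes of serine, one-carbon and amino acid metabolism 6 were enriched with PABPC and 3 depleted with PABPN, both near the shares over all genes (38.4% and 14.6%). None was depleted with PABPC, beside 32.4% of all genes. All 6 called differences were negative, from -2.52 for SHMT2, the mitochondrial serine hydroxymethyltransferase (SE 0.209), to -0.87 for GOT1, an aspartate aminotransferase (SE 0.144). Of 10 amino acid transporters 2 were enriched with PABPC and 1 was depleted with PABPN, beside 38.4% and 14.6% of all genes. Of the 10, 9 had baseMean above 50 in both comparisons. Their called differences ran from -2.31 for SLC1A5 (SE 0.157) to -0.66 for SLC7A1 (SE 0.175). The median standard error in the PABPC table was 0.221 for the enzymes and 0.157 for the transporters, beside 0.135 for protein coding genes.

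Of 19 other induced targets, 16 with baseMean above 50 in both comparisons, 10 were enriched and 1 depleted with PABPC, beside 38.4% and 32.4% of all genes. With PABPN 3 were enriched and 1 depleted, beside 17.5% and 14.6%. Their called differences ran from -2.30 for MAP1LC3B, an autophagy protein (SE 0.169), to 2.09 for DDR2, a collagen receptor (SE 0.256). Of 10 further messages known for regulatory upstream reading frames, 9 with baseMean above 50 in both comparisons, 7 were enriched and 1 depleted with PABPC. With PABPN 4 were depleted, and the same shares over all genes apply. The called differences ran from -2.84 for SLC35A4 (SE 0.248) to -0.67 for MDM2, the ubiquitin ligase of p53 (SE 0.174).

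The libraries apart were also high for part of the 6 lists. Of 76 genes with a mean above 200, 14 were over 1.5-fold higher in every group, beside 0.602% of 11298 protein coding genes. These were 8 of 15 enzymes (ALDH1L2, ASS1, CBS, CTH, GPT2, PCK2, PHGDH and PSAT1) and 3 of 9 transporters (SLC1A4, SLC6A9 and SLC7A11). The others were JDP2 among 10 transcription factors and related regulators, and STC2 and VLDLR among 16 other targets. All were named after their values were seen. None of the 17 genes of the eIF2 list and none of the 9 messages with upstream reading frames reached this ratio. Of the 30 protein coding genes with the highest standard errors 5 were members and 11 belonged to the lists in the PABPC table, and 3 and 10 in the PABPN table.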

How the data were processed

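Total RNA of 9 libraries of HEK293T cells (ribosomal RNA depleted, stranded, single-end reads of 75 nt) was analysed, 3 per group as given in the sample titles. The authors aligned reads to hg38 with STAR and counted introns and exons together with featureCounts 2.0.2, on an annotation derived from an earlier GENCODE release from which stretches shared by genes were removed. For each RIP the authors left out genes that transcription from upstream had run into. The signal the authors deposited, baseMean, is the mean of reads divided by DESeq2 size factors over the 6 libraries of a table. The authors made the log2 fold changes with standard errors, the Wald score and each p-value with DESeq2. They are the authors' own comparisons and the tables hold little else, so they are the main values here. Rows that repeated an identifier, 123 per table, were dropped.

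Reads per library were solved gene by gene from both baseMean values and both fold changes with a lattice search that includes the small ridge of the authors' DESeq2 fit (SymPy 1.14.0, tolerance 0.6 of the last digit and 1e-05 in log2). All 9156 and 9303 genes with baseMean under 1 were whole reads. Reads were divided by median-ratio size factors, and log2(reads + 0.5) of 14519 genes was fitted by group in limma 3.58.1 with an intensity trend, after seeing the data. Differences of fold changes were tested with SciPy 1.17.1. The scripts were tested on simulated data. Alternatives were other cut-offs, centring, filters, adjustment sets and the limma fits. Members and lists were chosen with earlier results of these data known. Named genes were the members, the highest and lowest called difference of each list and the 3 nearest genes of 3 members. P-values measure the spread between 3 libraries a group. GENCODE 44 and RefSeq GRCh38.p14 gave positions, which can differ from the annotation of the authors. A marker of the blood list is not reported here.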

Additional observations from a re-analysis of the deposited data

How the results depend on the processing

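Of the 5 members enriched with PABPC, all 5 were called under each alternative that was run, with 5 to 6 members called when single libraries were left out of the limma fit (SESN2 was added without input library c) and 10 without the 3 libraries apart or with a term for them. For PABPN, 1 member was called in the deposited table. This fell to 0 with a log2 cut-off of 1, with a Wald test that the change exceeds 0.5 and in limma on all libraries, lay between 0 and 1 when single libraries were left out, and rose to 2 without the 3 libraries or with their term. For the difference, 5 members were called in the main test, 4 to 6 under the other alternatives, 5 to 7 with single libraries left out, 9 without the 3 libraries and 10 with their term. PPP1R15B was lost with a cut-off of 1 and with a Wald test beyond 0.5, and ATF5 was no longer tested with baseMean above 200. Among the lists, PABPN calls moved from 16 to 4 with a cut-off of 1, to 25 without the 3 libraries and to 26 with the term, and PABPC calls from 49 to 31 with a cut-off of 1. No called member changed direction. With the exon union of GENCODE 44 the input level fell to 310 normalised reads per kb for PPP1R15B and 186 for PPP1R15A, and the order of levels was kept. No paired analysis was possible because the deposited tables do not link the libraries to replicate numbers. Leaving out 1 library leaves 2 in its group, and the variance is pooled over groups. The lowest library of ATF5 had 100 reads and that of CHAC1 34, and every other member had over 200 in each library.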

Other observations

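Some heat shock messages were low in the libraries that stood apart, in genes chosen after their values were seen. In all, 36 protein coding genes (0.319%) were over 1.5-fold lower in the library apart of every group. CCDC86, RRP9 and NOL6, which are not heat shock genes, were among the lowest. HSPA1A, an inducible cytosolic chaperone, had 7420, 7179 and 1954 normalised reads in input libraries a, b and c, 881, 1779 and 1724 in PABPN RIP and 14449, 14777 and 3381 in PABPC RIP. The library that stood apart was thus the lowest of each group, at 0.268, 0.503 and 0.231 of the mean of the other 2. The ratio for HSPA8, its constitutive relative, was 0.406, 0.592 and 0.615, and for HSPH1, a nucleotide exchange factor of these chaperones, 0.523, 0.679 and 0.578. It was nearer to 1 for the mitochondrial chaperone HSPD1, at 0.704, 0.887 and 0.836, and for its partner HSPE1, at 0.601, 0.895 and 0.699. HSPA1A and HSPA8 were also lower in PABPN RIP than in input in the other libraries, while HSPA1A was higher in PABPC RIP.

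ADM2, which encodes the peptide intermedin, was 12.1-fold higher in the library apart of input, 9.04-fold in PABPN RIP and 11.5-fold in PABPC RIP, ratios close to those of CHAC1. These ratios rest on few reads. ADM2 had 2, 8 and 73 reads in input libraries a, b and c, 116, 13 and 13 in PABPN RIP and 17, 21 and 299 in PABPC RIP. ADM2 was the only gene of the PABPC table with a fold change and no p. ASNSP1, a pseudogene of ASNS, had 31.9, 37.4 and 327 normalised reads in input, 279, 18.7 and 30.4 in PABPN RIP and 10.1, 9.01 and 59.5 in PABPC RIP. It followed ASNS across libraries, but its fold change over input in PABPC RIP was -2.35 (SE 1.28) where that of ASNS was 0.57.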
